A study of Mus musculus with 8 samples.

Results

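Broad three-factor regions are the widest stretches of the kidney cortex genome joined by overlapping peaks of Mta2, Mbd3 and Zbtb7a. A factor need not cover the whole width. The regions were chosen by the peak intervals themselves. The 3 deposited peak lists were merged on chromosomes 1 to 19 and X into union regions of intervals sharing at least 1 bp, and a region was kept when it held peaks of all 3 factors and spanned at least 4000 bp. The rule kept 522 regions, which is 0.516% of the 101152 three-factor regions and 0.317% of all 164813 union regions. Sharing, width and every value read from the same peaks are therefore descriptions of the chosen regions, and no test was made on them.

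Chromatin immunoprecipitation with sequencing had been performed on kidney cortex of 2-month-old mice. All 8 libraries, Input included, carried the genotype Mta2flx/flx, that is, loxP-flanked Mta2 alleles, and no Cre is named in the labels. The 4 groups were Input chromatin and antibodies against Mta2, Mbd3 and Zbtb7a, with 2 biological replicates each, and the titles repeat the same pair of mouse numbers in every group. Tissue had been fixed with disuccinimidyl glutarate, a protein-to-protein crosslinker, and then with formaldehyde. Cortex is a mixture of tubules, glomeruli, vessels, stroma and immune cells, so a peak cannot be assigned to a cell type, and a peak strong in few cells and a peak weak in many cannot be told apart. Each list carries 1 value per peak for both replicates of a group, so no value has an SD.

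NuRD, the nucleosome remodelling and deacetylase complex to which Mta2 and Mbd3 belong, joins an ATP-driven chromatin remodeller of the Chd family to histone deacetylases. Mta proteins form the scaffold on which the deacetylases assemble, and Mbd3 belongs to the methyl-CpG-binding domain family but binds methylated DNA poorly. Zbtb7a is a zinc finger protein with a BTB domain that is known as a repressor able to recruit NuRD, best studied at the fetal globin genes of red cells.

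Promoter sequences are shown for the genes with the widest regions over their start and for listed genes with the widest region of their list, because more than 1 in 2 broad regions lay over a gene start. Each window holds 250 bases before and 50 bases after a start listed by RefSeq for GRCm38.p6, whose coordinates are those of mm10. The windows are Hoxb8 at chr11:96281655-96281954 on the plus strand, Tnrc18 at chr5:142817613-142817912 on the minus strand, Mef2d at chr3:88142122-88142421 on the plus strand and Pax2 at chr19:44746351-44746650 on the plus strand. The other windows are Igfbp4 at chr11:99040994-99041293 on the plus strand, Tgif1 at chr17:70853483-70853782 on the minus strand, Junb at chr8:84978699-84978998 on the minus strand and Vegfa at chr17:46032328-46032627 on the minus strand. Capitals mark matches, on either strand, to the GC box GGGCGG, the CCAAT box CCAAT, the TATA box TATAAA and the C-rich motif CCCTTCCC, and matches of different motifs may share bases.
Hoxb8: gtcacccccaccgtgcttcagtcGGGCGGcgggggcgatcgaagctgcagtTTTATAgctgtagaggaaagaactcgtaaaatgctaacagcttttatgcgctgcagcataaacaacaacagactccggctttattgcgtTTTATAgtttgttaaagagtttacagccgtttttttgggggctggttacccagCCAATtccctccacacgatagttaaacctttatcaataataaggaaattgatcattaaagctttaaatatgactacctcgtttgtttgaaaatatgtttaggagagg
Tnrc18: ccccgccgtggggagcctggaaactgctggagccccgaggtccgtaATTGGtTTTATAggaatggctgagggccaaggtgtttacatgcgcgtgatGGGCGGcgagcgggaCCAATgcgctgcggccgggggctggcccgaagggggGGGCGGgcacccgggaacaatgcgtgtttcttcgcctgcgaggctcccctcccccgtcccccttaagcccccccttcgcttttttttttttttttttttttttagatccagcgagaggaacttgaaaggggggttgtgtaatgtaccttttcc
Mef2d: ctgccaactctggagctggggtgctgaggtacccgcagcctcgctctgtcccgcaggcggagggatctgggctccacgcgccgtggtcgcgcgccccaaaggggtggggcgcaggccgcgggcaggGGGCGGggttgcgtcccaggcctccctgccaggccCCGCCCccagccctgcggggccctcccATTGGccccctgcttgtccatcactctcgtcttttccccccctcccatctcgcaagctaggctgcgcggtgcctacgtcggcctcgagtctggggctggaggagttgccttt
Pax2: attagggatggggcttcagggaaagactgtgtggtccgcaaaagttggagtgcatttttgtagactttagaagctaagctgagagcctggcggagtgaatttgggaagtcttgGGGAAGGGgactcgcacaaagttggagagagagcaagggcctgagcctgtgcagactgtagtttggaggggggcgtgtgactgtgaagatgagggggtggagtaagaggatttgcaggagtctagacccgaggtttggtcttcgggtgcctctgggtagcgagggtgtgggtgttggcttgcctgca
Igfbp4: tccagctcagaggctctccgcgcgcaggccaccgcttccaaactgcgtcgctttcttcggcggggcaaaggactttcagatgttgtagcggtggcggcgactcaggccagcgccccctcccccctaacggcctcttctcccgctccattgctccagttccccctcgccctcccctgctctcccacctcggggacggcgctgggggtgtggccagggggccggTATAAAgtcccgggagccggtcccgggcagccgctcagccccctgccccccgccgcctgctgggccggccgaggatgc
Tgif1: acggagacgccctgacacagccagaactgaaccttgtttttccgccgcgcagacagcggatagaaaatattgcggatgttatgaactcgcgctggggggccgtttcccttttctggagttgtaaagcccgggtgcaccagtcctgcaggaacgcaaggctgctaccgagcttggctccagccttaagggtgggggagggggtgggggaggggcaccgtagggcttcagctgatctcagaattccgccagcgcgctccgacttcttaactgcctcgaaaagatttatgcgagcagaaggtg
Junb: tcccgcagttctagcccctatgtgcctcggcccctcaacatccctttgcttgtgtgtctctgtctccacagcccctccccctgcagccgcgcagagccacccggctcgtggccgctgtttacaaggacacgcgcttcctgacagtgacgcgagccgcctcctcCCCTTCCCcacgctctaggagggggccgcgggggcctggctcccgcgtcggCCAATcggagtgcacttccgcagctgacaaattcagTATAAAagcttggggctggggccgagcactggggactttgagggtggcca
Vegfa: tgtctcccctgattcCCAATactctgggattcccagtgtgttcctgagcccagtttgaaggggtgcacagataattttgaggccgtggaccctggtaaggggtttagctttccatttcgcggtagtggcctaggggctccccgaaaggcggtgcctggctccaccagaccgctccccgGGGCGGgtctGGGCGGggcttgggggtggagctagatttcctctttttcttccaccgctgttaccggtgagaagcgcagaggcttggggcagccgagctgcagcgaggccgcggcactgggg

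Hoxb8, Hoxb7 and Hoxb9 encode homeodomain factors of axial patterning, Tnrc18 a BAH domain protein, Mef2d a MADS-box transcription factor and Pax2 a paired-box factor of kidney development. Of these 8 windows, that of Mef2d held the strongest summit of all 3 factors, and the other 7 held none. The Mef2d window has GC boxes on both strands and a CCAAT box on the reverse strand. The Pax2 window has no GC, CCAAT or TATA box and a CpG observed-to-expected ratio of 0.410, while the Hoxb8 window has a ratio of 0.970.

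The 522 regions covered 2695966 bp, which is 3.16% of the length of all three-factor regions. Their widths ran from 4001 to 15633 bp, with a median of 4744.5 bp and quartiles of 4334 and 5500.5 bp. All other three-factor regions had a median width of 635 bp. Just inside the threshold lay regions at B3gat2 (4001 bp), Mknk2 (4004 bp), Ptprd (4010 bp), Tbx2 (4016 bp) and Agap1 (4017 bp). Just outside lay regions at Mllt3 (3999 bp), at no protein-coding gene on chromosome 15 (3998 bp), and at Arid5b (3997 bp), Slit2 (3995 bp) and Foxf1 (3993 bp). Across this edge the strongest folds overlapped. The fold is the authors' enrichment at a summit over background. In Mta2 it was 30.3 to 46.9 inside and 21.8 to 70.6 outside.

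The widest region, at chr19:5835073-5850705, spanned 15633 bp and overlapped Neat1, the long noncoding RNA that scaffolds nuclear paraspeckles. It held 2 Mta2 intervals, 2 Mbd3 intervals and 6 Zbtb7a intervals. Its strongest fold was 38.6 in the Mta2 list, 34.9 in the Mbd3 list and 35.2 in the Zbtb7a list. A second Neat1 region of 7774 bp lay 152 bp away, with weaker folds of 8.71, 10.4 and 10.0 for Mta2, Mbd3 and Zbtb7a.

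The next widest region, 14399 bp at chr11:96275868-96290266, reached over Hoxb7, Hoxb8 and Hoxb9 and held 15 intervals, the most of any broad region. Mta2 reached a fold of 9.80 there and Mbd3 11.05, while Zbtb7a reached 39.8. Ranked within each list, the Mta2 peak stood at the 73.4 percentile, the Mbd3 peak at the 78.7 percentile and the Zbtb7a peak at the 98.6 percentile. The strongest Zbtb7a summit lay 1483 bp from that of Mta2, and the Mbd3 summit lay 9 bp from it.

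Tns1, which encodes the focal adhesion protein tensin 1, held the third widest region, of 12795 bp, and 6 broad regions in all, more than any other gene. Together they covered 41437 bp of the gene, and none held a listed start of a protein-coding gene. Their strongest folds ran from 20.4 to 38.1 for Mta2, from 13.4 to 47.2 for Mbd3 and from 13.8 to 68.4 for Zbtb7a. The weakest of the 6 in each list was the narrowest, a region of 4424 bp.

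The region over the start of Tnrc18 differed in form. It spanned 11879 bp with 1 interval in each list, of 11780 bp for Mta2, 11594 bp for Mbd3 and 11791 bp for Zbtb7a. The others among the 10 widest lay at Trim8, a ubiquitin ligase, 16784 bp from Ahdc1, at Bcl9l, a beta-catenin coactivator, at Cxxc5, a CXXC-type zinc finger protein, at Fxyd2, the gamma subunit of the sodium pump, and at Mef2d. Their widths ran from 8818 bp at Mef2d to 10021 bp at Trim8. At Trim8 the strongest Mbd3 summit (fold 30.8) lay 8137 bp from that of Mta2, but a second Mbd3 peak of nearly equal fold (30.5) had its summit beside that of Mta2. The Zbtb7a summit lay 7 bp from that of Mta2.

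**Figure D1:**
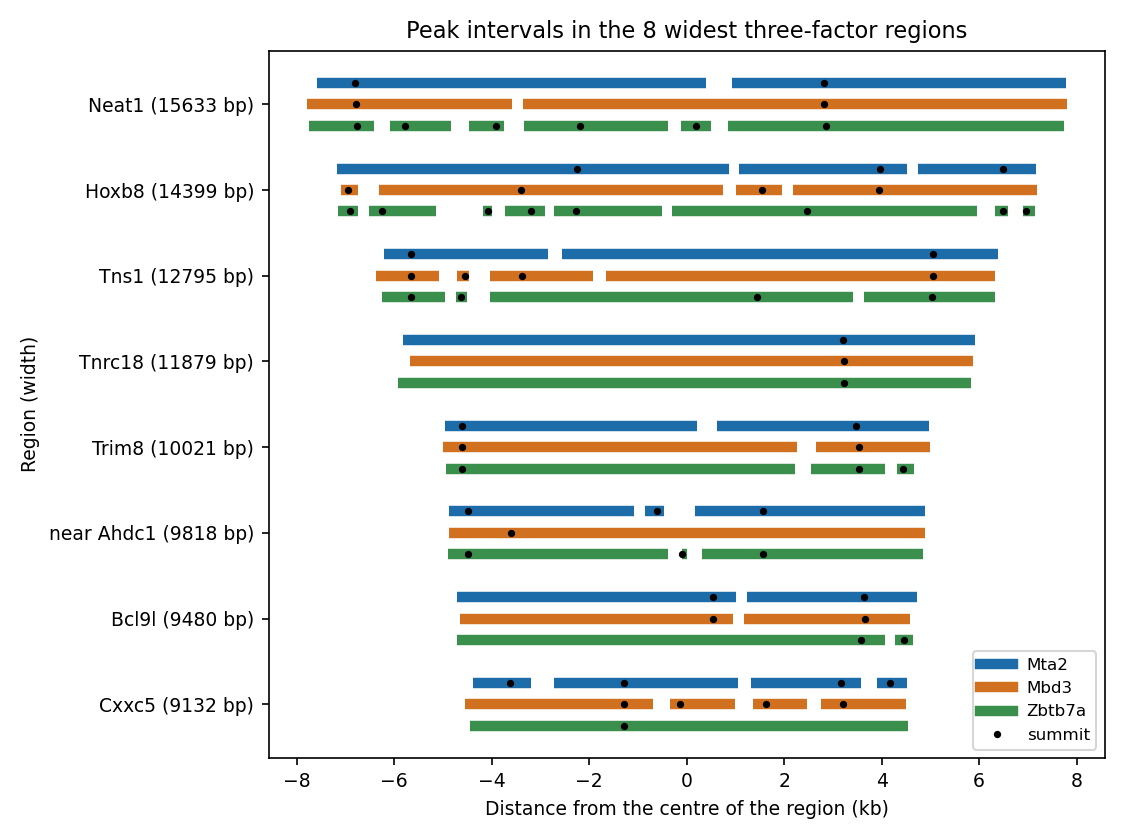
Peak intervals of Mta2, Mbd3 and Zbtb7a in the 8 widest regions, drawn to scale by distance from the region's centre in kb, with a dot at each summit. Tnrc18 has 1 interval in each list, and the Hoxb8 region has 3, 4 and 8 intervals.

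Most broad regions were runs of several intervals in at least 1 list. They held a median of 5 intervals (3 to 15), and 90 regions (17.2%) held the minimum of 3, against 91.2% of all other three-factor regions and 29.3% of those from 3000 to under 4000 bp wide. Mta2 was the most continuous factor in these peak lists, whose read depth was not analysed. It formed a single interval in 378 regions (72.4%), Mbd3 in 191 (36.6%) and Zbtb7a in 160 (30.7%). The factors stood in the same order in all other three-factor regions, with 98.5%, 95.3% and 93.7%. No broad region held more than 4 Mta2 intervals, 5 Mbd3 intervals or 8 Zbtb7a intervals. A single interval of 4000 bp or more was present in 398 regions for Mta2, 210 for Mbd3 and 174 in the Zbtb7a list. In 111 regions all 3 lists had such an interval, and in 70 regions none had, so that the width came from joining intervals.

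**Figure D2:**
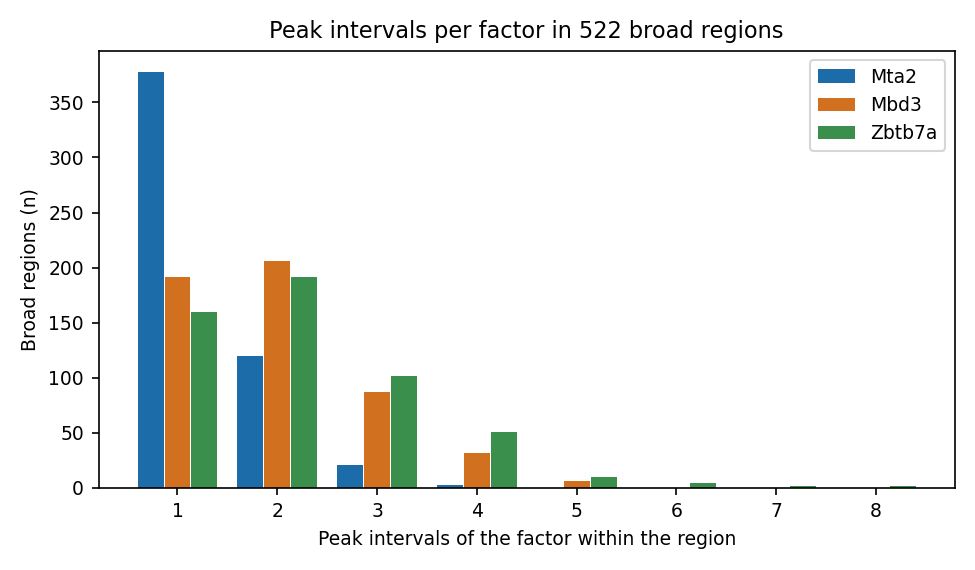
Number of broad regions (vertical axis) by the number of peak intervals of a factor within the region (horizontal axis), with 1 bar per factor. Mta2 had 1 interval in 378 regions, and Zbtb7a had 2 intervals in 191.

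Intervals of Mta2 covered a median of 98.6% of a broad region, those of Mbd3 91.0% and those of Zbtb7a 89.0%. Coverage was under 50% in 1 region by Mta2, in 2 by Mbd3 and in 14 by Zbtb7a. Those 14 regions, singled out after their values were seen, each held 1 Mta2 interval that covered 97.1% to 100% of the region. Mta2 had the highest rank within its list in 12 of the 14 and Zbtb7a in 1. The lowest Zbtb7a coverage, 10.7%, was at the start of Cyp26a1, which encodes a retinoic acid hydroxylase, where Mta2 covered 100% and Mbd3 50.8%. Folds there were 21.4 for Mta2, 10.1 for Mbd3 and 7.56 for Zbtb7a. Cyp26b1, which encodes a related hydroxylase, was also among the 14, with 41.8% Zbtb7a coverage. Trim71, an RNA-binding ubiquitin ligase of early development, had 21.2%. Otud7a, a deubiquitinase gene, had 22.6%. Egr3, an early growth response factor, had 28.2%, and Egr2 had 49.6%. At Npr3, the natriuretic peptide clearance receptor, Zbtb7a covered 42.5% with a fold of 4.11, at the 39.5 percentile of its list, while Mta2 stood at the 88.7 percentile.

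Peaks within broad regions were among the strongest of each list. The strongest Mta2 fold per region had a median of 26.5, the strongest Mbd3 fold 24.8 and the strongest Zbtb7a fold 31.4. In all other three-factor regions these medians were 7.68, 6.44 and 5.89, and in those from 3000 to under 4000 bp wide 23.4, 21.4 and 24.2. A peak in the top 10% of its list by fold was present in 414 regions (79.3%) in the case of Mta2, 393 (75.3%) with Mbd3 and 426 (81.6%) with Zbtb7a. All 3 factors had one in 356 regions (68.2%), against 55.1% of those from 3000 to under 4000 bp wide and 8.80% of all other three-factor regions. By rank within the lists, Zbtb7a was the highest of the 3 factors in 242 broad regions (46.4%), Mta2 in 170 (32.6%) and Mbd3 in 110 (21.1%). From 3000 to under 4000 bp Zbtb7a already led, in 40.5% against 37.5% for Mta2. In all other three-factor regions Mta2 led in 48.0% and Zbtb7a in 25.6%. The maxima lay outside the broad class for Mta2 and Mbd3, at 174 and 97.9, so width and fold did not order regions alike.

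The highest folds had different leaders by factor. For Mta2 the highest was 84.5 in the region over the start of Bahd1, a BAH domain protein of heterochromatin, where Mbd3 reached 38.8 and Zbtb7a 49.6. For Mbd3 it was 78.2, in a region of 7891 bp lying 30440 bp from Kcnk16, where Mta2 reached 74.0 and Zbtb7a 111.6. This region was high in all 3 lists. A region 12937 bp from Klf15 likewise had 68.5, 71.3 and 69.9 for Mta2, Mbd3 and Zbtb7a. Amotl2, an angiomotin family protein of cell junctions, and Camk2n1, an inhibitor of calmodulin kinase II, completed the top Mta2 folds with 67.9 and 62.0. Nfic (75.03), a region 11563 bp from Fam107a (62.2) and Atp6v0a4 (60.8), a proton pump subunit of intercalated cells, were among the top Mbd3 folds.

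For Zbtb7a the highest fold, 465, was in the region over the start of Ski, a corepressor of Smad proteins, and was also the highest of its whole list. Mta2 reached 17.6 and Mbd3 17.4 there, at the 88.8 and 89.5 percentiles. The strongest Zbtb7a summit lay 68 bp from that of Mta2. Glis2, a zinc finger factor needed for kidney maintenance, followed with 126.7, Ppara, the nuclear receptor of fatty acid oxidation, with 120.0, the region near Kcnk16 with 111.6 and Lmo4, a LIM-only protein, with 111. At Glis2, Ppara and Lmo4 Mta2 folds were 49.8, 43.9 and 45.4. The regions with the most intervals after Hoxb8 were at Hgd, a tyrosine degradation enzyme (13 intervals), and, with 12 each, at Fgf1 and Arhgap26, at Neat1 and at Nav2.

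A pair of members had folds that were low for broad regions in all 3 lists and were singled out after their values were seen. The region at chr17:39842993-39848840, over Rn18s-rs5 and AY036118, held 1 interval per list across its 5848 bp, with folds of 5.41 for Mta2, 5.14 for Mbd3 and 9.06 for Zbtb7a. Within the whole lists these folds stood at the 51.3, 51.6 and 72.7 percentiles. The deposited −log10 q values of the region were 2142, 2005 and 5252. Rn18s-rs5 is annotated as ribosomal RNA sequence, which occurs in many copies, and the part of read placement in these values was not tested. The region of 4779 bp near Nup35, at chr2:80812090-80816868, had folds of 2.02, 2.93 and 3.56, and its Mta2 interval covered 5.13% of it.

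**Figure D3:**
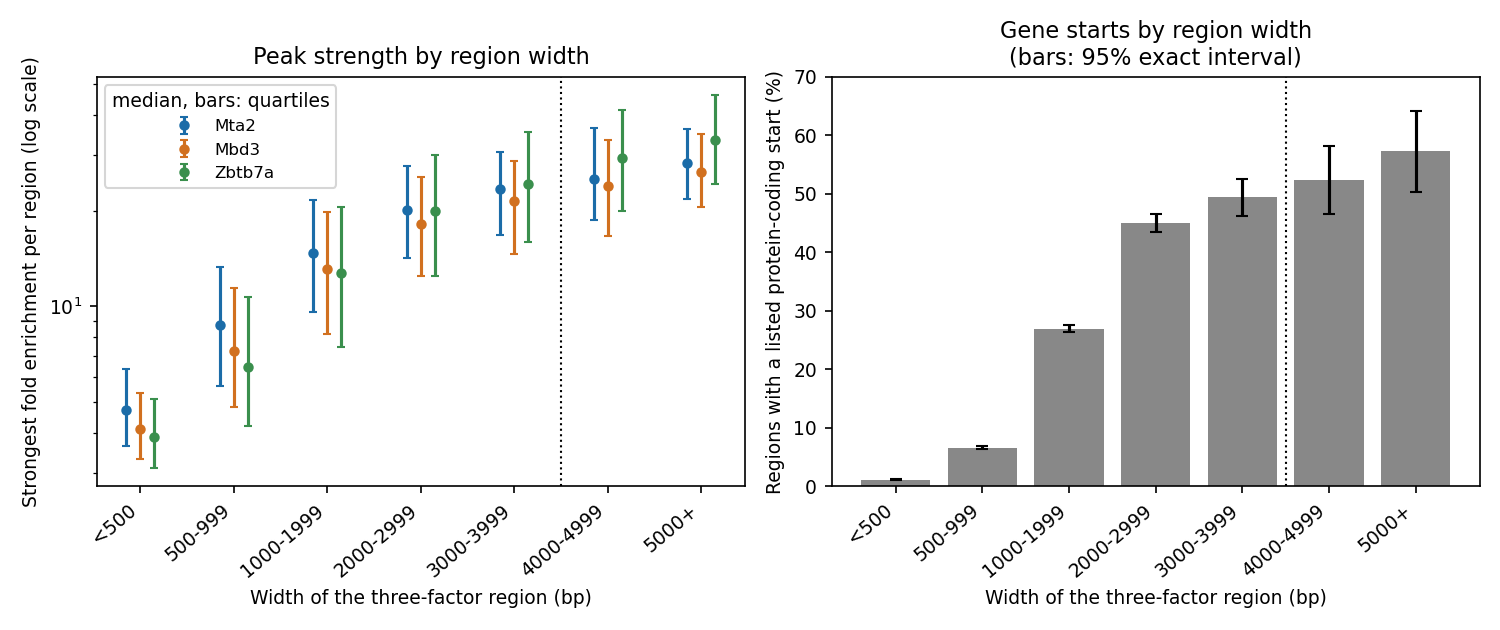
Left, strongest fold per three-factor region outside chromosome 18 (log axis) by region width, as median and quartiles for each factor. Right, share of regions outside chromosome 18 that hold a listed protein-coding start, with exact intervals, rising from 1.12% in the narrowest class to 57.4% in the widest; classes right of the dotted line are broad.

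The strongest summits of the factors mostly coincided even in these wide regions. The median distance was 18 bp between Mta2 and Mbd3, 28 bp between Mta2 and Zbtb7a and 28 bp between Mbd3 and Zbtb7a. All 3 lay within 200 bp of each other in 350 regions (67.0%). Distances over 1000 bp occurred in 68 regions (13.0%) for Mta2 and Mbd3, in 98 (18.8%) for Mta2 and Zbtb7a and in 94 (18.01%) for Mbd3 and Zbtb7a. The corresponding shares were 5.97%, 8.91% and 9.21% in regions from 3000 to under 4000 bp wide. In all other three-factor regions they were 0.281%, 0.357% and 0.356%, where the narrower width leaves less room. In 59 broad regions (11.3%) the Zbtb7a summit stood over 1000 bp from the Mta2 and Mbd3 summits while those 2 lay within 200 bp of each other. The same held for Mta2 alone in 29 regions and for Mbd3 alone in 25. A near tie between peaks of a list can decide which summit counts, as at Trim8.

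Gene positions were not used to choose the regions. The RefSeq promoter table lists a start for 17273 of 21627 protein-coding genes and for none on chromosome 18, so 504 regions outside that chromosome were placed. Of these, 274 (54.4%, exact 95% interval 49.9% to 58.8%) held a listed start, against 10.8% (10.6% to 10.96%) of 97503 other three-factor regions. The intervals cover counting error only, and neighbouring regions are not independent. The share was already 45.0% (43.4% to 46.5%) from 2000 to under 3000 bp and 49.4% (46.2% to 52.6%) from 3000 to under 4000 bp, and was 52.3% (46.5% to 58.1%) from 4000 to under 5000 bp and 57.4% (50.3% to 64.2%) from 5000 bp. The last 3 intervals overlap. A wider region has more room for a start, and a share corrected for width was not computed. Of the rest, 69 held an end of a gene without a listed start, 117 lay inside or across a gene without a start and 44 lay outside protein-coding genes. Over all 522 regions, 45 lay outside protein-coding genes, at a median of 11973 bp from the nearest, and 25 of them overlapped a noncoding gene. Exons, introns and UTRs were not analysed here.

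Regions over a start and regions with no gene start or unlisted gene end were alike in width, with medians of 4834.5 bp (274 regions) and 4684 bp (161 regions). The median strongest folds were 25.9 for Mta2 and 23.3 for Mbd3 over starts, and 30.0 and 29.2 away from them. For Zbtb7a the medians were 31.1 and 32.7. Quartiles overlapped for every factor. Zbtb7a held the highest of the 3 ranks in 142 regions over starts (51.8%) and in 60 away from them (37.3%).

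Broad regions extended further downstream than upstream of the most upstream listed start that they held. Over the 254 regions that held starts of 1 gene, the median reach from that start was 1671 bp upstream (quartiles 975 and 2463.5 bp). Downstream it was 3325 bp (2504.75 and 3935.25 bp). Where a region held several starts of the gene, this choice of start lengthens the downstream arm, and its part was not tested. The downstream arm was the longer in 196 regions (77.2%, exact interval 71.5% to 82.2%). Among 9478 narrower three-factor regions over starts, measured in the same way, the downstream arm was the longer in 69.5%, with medians of 488 and 752 bp. At 2000 bp downstream, Mta2 intervals covered 83.5% of the starts, Mbd3 intervals 74.4% and Zbtb7a intervals 69.3%. At 2000 bp upstream the values were 36.6%, 31.9% and 31.1%.

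**Figure D4:**
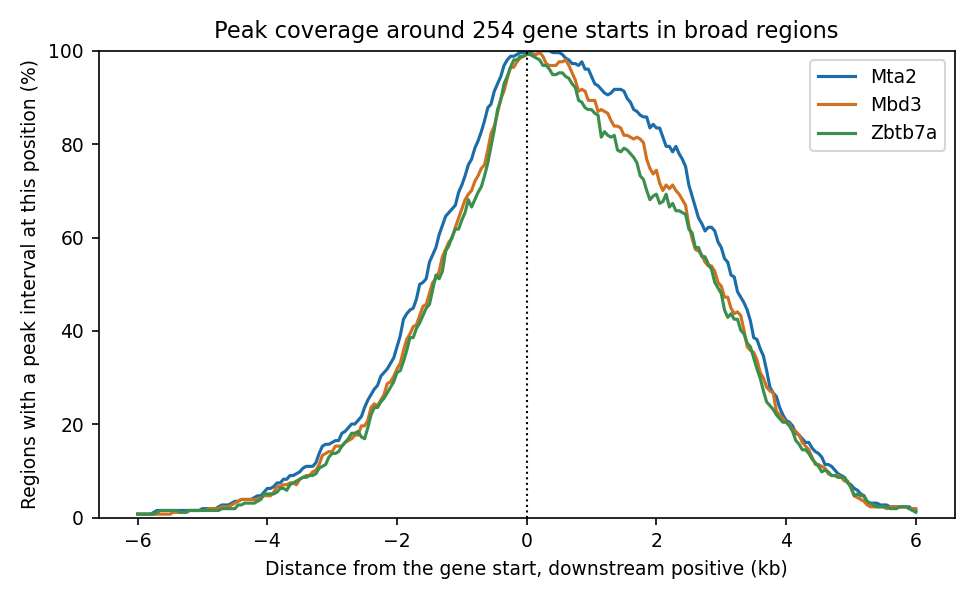
Share of 254 broad regions (vertical axis) that have a peak interval at each distance, in kb, with downstream positive, by factor. Distance is taken from the most upstream listed start in the region. Coverage falls more slowly on the downstream side for all 3 factors.

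The strongest summit was often away from the most upstream listed start in the region. It lay within 200 bp of that start in 37.4% of the 254 regions for Mta2, 33.5% for Mbd3 and 37.4% for Zbtb7a. The shares were 78.7%, 78.0% and 76.8% in the narrower regions, whose median arms of 488 and 752 bp leave less room for a distant summit. In the broad regions the summit lay over 1000 bp downstream in 57, 67 and 57 regions. It lay over 1000 bp upstream in 38, 44 and 38. The equal counts for Mta2 and Zbtb7a were partly different regions, since 73 of 95 were shared within 200 bp and 40 of 57 downstream. At Pax2 the strongest Mta2 summit stood 3335 bp from that of Mbd3 and 3327 bp from that of Zbtb7a.

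Promoters in broad regions were rich in CpG, as were those in other three-factor regions. The 356 promoters of 284 genes had a median CpG observed-to-expected ratio of 0.747, against 0.802 for promoters in regions from 2000 to under 4000 bp and 0.762 over all narrower three-factor regions. A ratio of at least 0.6 was found in 75.3% of the broad set and in 71.7% of promoters in narrower three-factor regions, with median CpG counts of 23 and 21 per window. Promoters in no three-factor region had 0.202, and all 21044 listed promoters 0.574. The GC box GGGCGG was found in 73.0% (68.1% to 77.6%) of the broad set, 74.7% from 2000 to under 4000 bp, 65.5% over all narrower three-factor regions and 46.7% of all promoters. TATAAA was found in 7.02% of the broad set, 6.51% over all narrower three-factor regions and 12.7% of all promoters. CCAAT was found in 35.4%, 37.5% and 38.5%. The motif CCCTTCCC, a C-rich sequence of the kind Zbtb7a is known to bind, was found in 10.1% (7.18% to 13.7%) of the broad set, 8.31% (7.34% to 9.37%) from 2000 to under 4000 bp, 6.26% over all narrower three-factor regions and 5.64% of all promoters. The intervals of the first 2 overlap. Among the printed windows, those of Pax2 and Junb hold it.

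Over all genes, 284 of 17273 with a listed start (1.64%) had it inside a broad region, 491 of 21627 (2.27%) had their span touched by one, and 11081 of 17273 (64.2%) had their start in some three-factor region. Genes with a start in a broad region had a median length of 26688.5 bp, those in narrower three-factor regions only 23764 bp and those in none 7391 bp. The gene lists below describe which kinds of gene the regions touched, each count being read beside these shares. The lists were chosen with earlier results of these data known, so their shares are descriptions only. Genes of a list can share a region, 3 genes, among them Ppara, also stand in another list, and no list was tested.

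Transcription factors of the nephron had the highest share, although its interval overlaps those of the next lists. Of 23 with a listed start, 9 (39.1%, exact interval 19.7% to 61.5%) had it inside a broad region, and 15 of 32 had their span touched. Some three-factor region held 22 of the 23 starts, beside 64.2% of all genes. Pax2 had the widest, 8774 bp, with folds of 18.3 for Mta2, 22.8 for Mbd3 and 27.4 for Zbtb7a. Pou3f3, a POU factor of the loop of Henle and distal tubule, had 5817 bp with 10.8, 11.7 and 13.1. Esrrg, an orphan nuclear receptor of mitochondrial metabolism, had 5425 bp with 18.4, 18.6 and 22.4. The other 6 were Ppara, Emx2, Nr3c2, Lhx1, Cux1 and Pax8. The 9 regions were unequal in strength, with the lowest fold of every list at Pax8 (9.13, 8.35 and 10.98) and the highest at Ppara (43.9, 43.4 and 120.0). Hnf4a and Ppargc1a, whose listed starts lay outside the region, were among those touched in their span only. Maf and Hoxb7 were also touched in their span, and no start is listed for them.

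Immediate early and stress genes, which are induced within minutes of a stimulus, followed with 8 of 21 (38.1%, 18.1% to 61.6%) and 11 of 25 by span. Some three-factor region held 20 of the 21 starts. Junb, an AP-1 subunit, had 7223 bp with folds of 34.7 for Mta2, 39.4 for Mbd3 and 58.0 for Zbtb7a. Zfp36l1, an mRNA decay factor, had 6403 bp with 22.4, 21.2 and 25.5, and Klf9, a glucocorticoid-induced Krüppel-like factor, had 6383 bp with 22.2, 23.0 and 23.6. The others were Fosl2, Jun, Atf3, Klf4 and Dusp1. Myc, Ier2 and Klf10, for which no start is listed, were touched in their span.

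The TGF-beta, BMP and Smad list had 17 of 17 starts in some three-factor region and 6 of 17 (35.3%, 14.2% to 61.7%) in broad regions. The members were mostly signal transducers and inhibitors. Tgif1, a repressor of Smad-driven transcription, had 7313 bp with folds of 26.2, 23.3 and 30.1 for Mta2, Mbd3 and Zbtb7a. Smad3, a receptor-activated Smad, had 7273 bp with 49.1, 46.6 and 55.3. Smad6, an inhibitory Smad, had 6933 bp with 42.0, 30.1 and 38.0. Id2, Ski and the ligand gene Tgfb1 were the others. Smad7, a second inhibitory Smad without a listed start, was touched in its span by 8501 bp. At Id2 and at Tgfb1 the strongest Zbtb7a summit lay 2485 and 2484 bp from that of Mta2.

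Smaller counts were found in the other lists. Of 15 clock genes, 3 had their start in a broad region (exact interval 4.33% to 48.1%). These were Bhlhe41, a repressor of the clock (5144 bp), Dbp, a clock output factor (5106 bp), and Nr1d1, which encodes Rev-erb alpha (4946 bp). Of 14 genes of the distal convoluted and connecting tubule, 2 did (14.3%, 1.78% to 42.8%): Wnk4, the kinase that regulates sodium chloride cotransport, and Kl, which encodes the FGF23 coreceptor klotho. The cotransporter gene Slc12a3 was touched in its span, with folds of 42.4, 46.8 and 44.5. The Hox list had 3 of 22 (13.6%, 2.91% to 34.9%), at Hoxb8, Hoxa7 and Hoxa9. Insulin and FoxO signalling had 2 of 16 (12.5%, 1.55% to 38.3%), at Igfbp4, an IGF-binding protein, with 8210 bp, and Foxo3. Fatty acid oxidation had 2 of 19 (10.5%, 1.30% to 33.1%), at Cpt1a, the mitochondrial entry enzyme, and Ppara. Podocyte genes had 1 of 19, Vegfa, with 5927 bp and folds of 38.5, 42.0 and 71.6, while Actn4 was among those touched in their span.

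In the remaining lists no start was found in a broad region, and each upper limit lies above the 1.64% of all genes. All 27 proximal tubule genes with a listed start had it in some three-factor region, and 0 of 27 in a broad one, which allows a share of up to 12.8% by the exact interval. Slc34a1, the main phosphate carrier of the proximal tubule, was touched in its span by a region of 4075 bp that holds the start of its neighbour Pfn3. Ribosomal protein genes had 14 of 14 starts in some three-factor region and 0 in a broad one (up to 23.2%). NuRD subunit genes had 10 of 11 and 0 (up to 28.5%). Chd3, a remodeller of the complex without a listed start, was touched in its span by 5210 bp, with folds of 30.5, 31.7 and 40.8. Cell junction genes had 15 of 16 and 0, with Llgl2, for which no start is listed, touched in its span by 4886 bp. Endothelial genes had 10 of 10 and 0, loop of Henle genes 8 of 11 and 0, collecting duct genes 7 of 11 and 0, and mesangial, stromal and smooth muscle genes 6 of 11 and 0. Of the lists for immune cells and other organs, 1 of 10 immune, 5 of 15 hepatocyte, 3 of 14 germ cell and 6 of 11 neuron starts lay in some three-factor region, beside 64.2% of all genes, and 0 in broad regions.

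**Figure D5:**
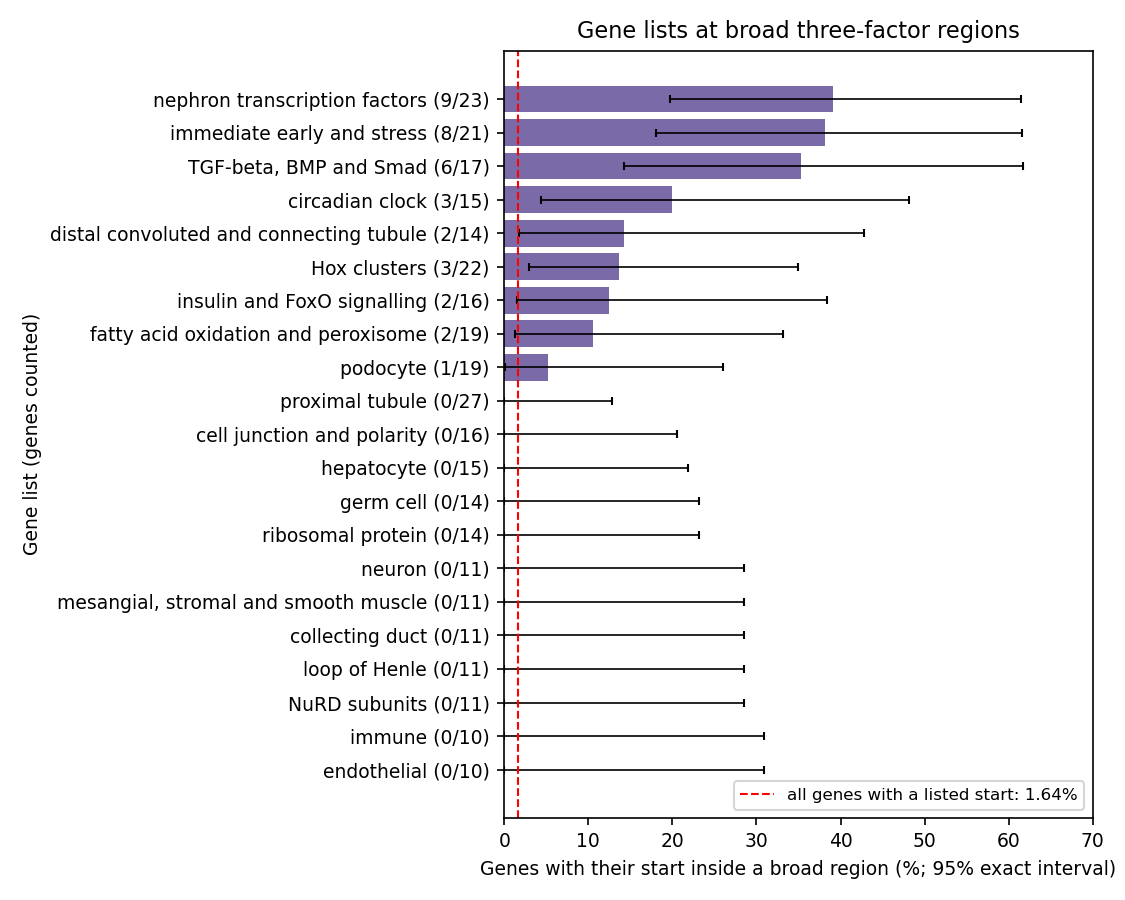
Share of the genes with a listed start that had it inside a broad region (horizontal axis, bars with exact 95% intervals), for 21 gene lists, with the counts in brackets. The dashed line is the share over all genes, 1.64%; nephron transcription factors stand at 39.1% and proximal tubule genes at 0.

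Gene families, chosen after values were seen, are read beside the same 1.64% of all genes. Starts in broad regions were found for 4 of 13 Klf genes (9.09% to 61.4%), 4 of 24 nuclear receptor genes of the Nr group (4.74% to 37.4%) and 2 of 5 Smad genes (5.27% to 85.3%). Dusp genes had 3 of 18 (3.58% to 41.4%) and Zbtb genes 4 of 36 (3.11% to 26.1%). The Zbtb genes included Zbtb7a itself, whose start lay in a region of 5714 bp with folds of 21.1 for Mta2, 16.9 for Mbd3 and 34.6 for Zbtb7a. Its paralog Zbtb7b had 7626 bp with 25.8, 28.4 and 56.3. The Zfp genes had 5 of 331 (1.51%) and the Slc genes 3 of 290 (1.03%), both near the share of all genes. Complex I (Nduf) genes had 41 of 42 starts in some three-factor region, mitochondrial ribosome (Mrp) genes 68 of 69 and proteasome (Psm) genes 37 of 39, and all had 0 in a broad one. The exact upper limits of 8.41%, 5.21% and 9.03% include 1.64%. Olfactory receptor genes had 2 of 944 and 0, with an upper limit of 0.390%.

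Broad regions lay at a median of 544958 bp from the next broad region, but 59 (11.3%) had another within 10000 bp and 109 (20.9%) within 50000 bp. They had a median of 15 three-factor regions within 50000 bp (quartiles 10 and 19), against 9 (5 and 14) for the others. After Tns1, the genes with the most in their span were Cxxc5, Rara, the retinoic acid receptor alpha, and Rbpms, an RNA-binding protein, with 3 each, and 29 genes held 2. Of these 29, the rule named 3110082I17Rik as the first by name. By chromosome, the broad share of three-factor regions was highest on chromosome 11, with 67 regions (0.937%, 0.727% to 1.19%), and lowest on X, with 2 (0.114%, 0.0138% to 0.411%). Both X regions lay within Bcor, a corepressor of Bcl6, with folds of 30.8, 30.5 and 35.4 in the wider and 16.2, 14.5 and 17.7 in the narrower for Mta2, Mbd3 and Zbtb7a.

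Broad regions held 7 of the 1005 miRNA hairpins listed by RefSeq (0.697%), and other three-factor regions held 152. The hairpins were Mir22, Mir339, Mir3968, Mir5135, Mir6935, Mir7238 and Mir7687. Their 11 mature sequences had 11 different seeds. Mir22, at chr11:75463716-75463810, lay in a region of 5787 bp with folds of 29.2 for Mta2, 38.4 for Mbd3 and 48.6 for Zbtb7a. Mir339, at chr5:139369650-139369745, lay in a region of 5728 bp within 3110082I17Rik, with folds of 30.3, 30.3 and 47.8. Mature sequences of these 2 hairpins, from RefSeq, are shown to identify them, with the seed in capitals.
miR-22-5p: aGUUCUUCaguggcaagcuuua
miR-22-3p: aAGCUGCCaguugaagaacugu
miR-339-5p: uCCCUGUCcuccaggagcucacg
miR-339-3p: uGAGCGCCucggcgacagagccg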

How the data were processed

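Chromatin immunoprecipitation libraries of kidney cortex (8, in 4 groups) are represented here by 3 peak lists, 1 per factor. The submitters' processing notes name the build mm10 and the tools MACS2, Bowtie2, bedtools and deepTools. Their versions and settings, and how replicates were merged, were not given in the sources used. The deposited lists have no header and follow the narrowPeak layout. The authors' fold enrichment at the summit is a ratio over background, the deposited −log10 q value gives each peak's support, and the deposited score is a whole-number multiple of −log10 q. There were 149855 Mta2 peaks, 134248 Mbd3 peaks and 124616 Zbtb7a peaks on chromosomes 1 to 19 and X, and read depth was not analysed here. Whether peaks were called per replicate or pooled is not stated.

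Intervals were merged with Python 3.11.15, pandas 2.3.3 and numpy 2.4.6 where they shared at least 1 bp. The rule for broad regions was applied as given, and the merging was tested on simulated intervals. Each factor's strongest peak in a region gave its fold, its percentile within the list and its summit. Shares have exact (Clopper-Pearson) 95% intervals from SciPy 1.17.1, which cover counting error only. Gene spans, starts, promoters and miRNAs came from RefSeq for GRCm38.p6. Symbols of the gene lists matched RefSeq directly (443 of 444) or through an older name (1). The 60 three-factor regions of chromosome Y were left out, and 0 of them reached 4000 bp.

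Members and lists were chosen with earlier results of these data known. The named regions are the 10 widest, the 5 of highest fold per list, the 5 with most intervals and the 5 on either side of the threshold. The named genes are those they touch, the 5 with most broad regions, up to 3 per list with the widest region, and every NuRD gene touched. Other list members are given by name only, and those described with values were chosen after their values were seen. Some genes that the rule named are left out of the text. Alternatives changed the width, the peaks admitted, the joining of intervals and the gene window.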

Additional observations from a re-analysis of the deposited data

How the results depend on the processing

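The number of broad regions follows its threshold and the way width is counted. It was 1543 at 3000 bp, 213 at 5000 bp, 85 at 6000 bp, 1605 with intervals up to 500 bp apart joined, 236 when width was counted where at least 2 factors overlapped, and 301 from the union of Mbd3 and Zbtb7a alone. The other 5 alternatives gave 417 to 511. The share of genes with a start in a broad region (1.64%) moved with that number, to 4.67%, 0.701%, 0.278%, 4.38%, 0.782% and 0.949% in the same order. It was 1.37% with a peak of 2000 bp required in each list, 1.46% from the union of Mta2 and Zbtb7a, and 2.27% by gene span.

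The share of regions holding a start (54.4%) lay between 51.1% and 57.8% in 11 of 14 alternatives. It was 44.9% with intervals joined over 500 bp and 91.4% by gene span. It was 68.1% when ends of genes without a listed start were also counted, an alternative chosen after seeing the data. The median Mta2 fold (26.5) was 24.5 at 3000 bp, 28.4 at 5000 bp and 25.2 with intervals joined. Median summit distances and the CpG ratio stayed within their intervals in all 11 alternatives run on each. With starts in regions of 3000 bp or more, nephron transcription factors had 13 of 23, immediate early genes 13 of 21 and proximal tubule genes 3 of 27, and from 6000 bp these were 1, 3 and 0. The TGF-beta, BMP and Smad list had 9 of 17 at 3000 bp, 4 at 5000 and 6000 bp and 3 where at least 2 factors overlapped. With intervals joined, proximal tubule genes had 4 of 27. The cause of these moves was not tested beyond the alternatives' own construction.

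No paired analysis was possible because each list holds 1 value per peak for both replicates, and no replicate was left out. A stretch without a peak was under the authors' threshold at an unknown depth and is not shown to be unbound.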
